A study of Mus musculus with 12 samples.

Results

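The genes by which cells detect bacterial lipopolysaccharide (LPS) and other microbial molecules were followed in glia sorted from the brains of LPS-injected mice. The set holds 10 of the 40853 gene symbols in the count tables, taken by name: the Toll-like receptors Tlr2, Tlr3, Tlr4, Tlr7, Tlr9 and Tlr13, the LPS co-receptor genes Cd14 and Ly96, and the adaptor genes Myd88 and Ticam1. The 12 RNA-seq libraries form 4 groups of 3: microglia and astrocytes from wild-type (WT) mice, and microglia and astrocytes from mice labelled as knockouts (KO) of Kpna4, which encodes importin α4, a receptor for nuclear import. All mice were aged 8 to 9 weeks and were injected intraperitoneally with 1 mg/kg LPS 20 h before dissection, so each value describes the state after LPS; untreated mice were not analysed here. Cells were sorted from digested whole brain, and 6 animals gave 1 library of each cell type. The question of the genotype comparison is how glia respond to an inflammatory stimulus when importin α4 is targeted.

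LPS is handed by CD14 to a complex of TLR4 and MD-2, the product of Ly96, at the cell surface. TLR2 detects bacterial lipoproteins there, while TLR3 (double-stranded RNA), TLR7 (single-stranded RNA), TLR9 (unmethylated CpG DNA) and TLR13 (bacterial ribosomal RNA) act in endosomes. MyD88, the product of Myd88, is the adaptor of all of these receptors except TLR3 and leads to NF-κB, whereas TRIF, the product of Ticam1, serves TLR3 and internalised TLR4 and leads to type I interferon. In the brain, microglia are known as the main cells with TLR4 and CD14.

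The 12 library totals lay between 10.3 M and 15.6 M counts. Of these, 10 microglia markers made up 1.36% to 1.72% in the microglia libraries but only 0.0203% to 0.0578% in the astrocyte libraries. The reverse held for 8 astrocyte markers, at 1.48% to 1.98% in their own libraries against 0.0318% to 0.0698%, so both labels matched their markers. Among markers of other cells, those of oligodendrocytes reached the largest share in astrocyte libraries, 0.374%, and took up to 0.165% in microglia libraries. Those of choroid plexus reached the largest share in microglia libraries, 0.212%, and took up to 0.103% in astrocyte libraries. Border macrophage markers took 0.0118% to 0.024% in microglia libraries and at most 0.0023% in astrocyte libraries. Mural and fibroblast markers took 0.0195% to 0.0274% in astrocyte libraries and at most 0.00237% in microglia libraries. Endothelial markers took at most 0.0102%, neuron markers at most 0.0114% and markers of oligodendrocyte precursors at most 0.00325%. Monocyte markers took at most 0.000936%, neutrophil markers at most 0.0024% and lymphocyte genes at most 6.89e-06%. What part border macrophages had in the microglia levels, or mural cells and fibroblasts in the astrocyte levels, was not tested. In CPM (counts per 1000000 of the library total), Kpna4 stood at 84.4 ± 14.8 in microglia of WT mice, 69.0 ± 9.41 in those of KO mice, and 49.6 ± 8.81 and 64.4 ± 18.6 in the astrocytes of the same mice (SD, n = 3 each). It did not pass the test in either cell type, and no source used here states which part of the gene was deleted, so its level does not check the labels.

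The promoters of 3 receptor genes are shown as examples of genes that differ in the sorted cells that held their RNA. Tlr3 was at a similar or higher level in astrocytes, while Tlr9 and Tlr13 were 33.2-fold and 32.1-fold lower there. Tlr2, which was 33.0-fold lower, also had a window, which is not shown. Each window runs from 250 bases before to 50 bases after an annotated start, in RefSeq annotation on GRCm38.p6, 5′ to 3′ on the strand of the gene, and 6 of the 10 genes had a window. Capitals mark matches to 3 motifs searched on both strands, with any overlap allowed: GAGGAA, the core bound by the myeloid factor PU.1; an interferon response element, read as 2 copies of GAAA spaced by 2 bases; and a form of the NF-κB site, read as GGG and TTTCC spaced by 2 bases.
Tlr3 promoter, chr8:45410331-45410630, minus strand: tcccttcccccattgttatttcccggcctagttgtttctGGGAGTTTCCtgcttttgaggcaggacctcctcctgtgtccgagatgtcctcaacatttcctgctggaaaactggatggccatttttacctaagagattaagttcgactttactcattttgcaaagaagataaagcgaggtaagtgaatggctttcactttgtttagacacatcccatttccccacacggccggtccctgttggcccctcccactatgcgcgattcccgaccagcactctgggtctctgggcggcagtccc
Tlr9 promoter, chr9:106222348-106222647, plus strand: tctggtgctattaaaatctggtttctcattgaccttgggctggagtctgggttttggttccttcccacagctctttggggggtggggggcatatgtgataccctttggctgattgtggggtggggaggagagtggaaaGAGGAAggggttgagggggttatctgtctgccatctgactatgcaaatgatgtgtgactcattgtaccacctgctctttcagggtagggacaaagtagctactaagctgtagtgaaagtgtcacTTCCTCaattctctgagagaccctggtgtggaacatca
Tlr13 promoter, chrX:106143025-106143324, plus strand: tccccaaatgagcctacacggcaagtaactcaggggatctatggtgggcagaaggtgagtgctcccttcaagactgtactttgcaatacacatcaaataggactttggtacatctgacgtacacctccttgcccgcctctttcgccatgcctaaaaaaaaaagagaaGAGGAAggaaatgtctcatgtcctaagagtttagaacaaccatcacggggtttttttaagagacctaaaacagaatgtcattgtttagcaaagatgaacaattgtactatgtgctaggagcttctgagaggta
The Tlr3 window held 1 match to the NF-κB form, starting at position -211 from the start site, and no GAGGAA. The Tlr9 window held GAGGAA at -112 and on the other strand at 13, and the Tlr13 window held it at -83. Of the other windows, Ticam1 had GAGGAA at -30 and Myd88 had the interferon response element at -40. Tlr2 had none of the 3 motifs as read here, though it was as strongly divided between the cell types as Tlr9 and Tlr13. Other forms of the NF-κB site were not searched. Of all 32851 windows of this length, 28.3% held GAGGAA, 3.44% held the interferon response element and 1.63% held the NF-κB form, so the GAGGAA matches are common, and a match in these letters describes the sequence only.

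Cd14, Tlr2, Tlr4, Tlr7, Tlr9, Tlr13 and Myd88 were 8.67-fold to 40.7-fold lower in astrocytes than in microglia, Ticam1 was 3.03-fold lower, and Tlr3 stood at a similar or higher level in astrocytes. Of the 10 genes, 9 passed the count filter in each cell type, and edgeR called 8 of these lower and 1 higher in astrocytes at an adjusted p under 0.05; the libraries of both cell types did not overlap in those 8. Calls were common in this contrast: of 13088 genes that passed in both cell types, 31.8% were called lower and 31.8% higher in astrocytes, and astrocyte libraries lay wholly below microglia libraries in 29.4%. The median log2 difference was -4.81 over the 9 genes and -0.03 over all 13088. In bulk libraries, fewer cells of a type and less RNA per cell cannot be told apart, and each cell type was one sort fraction, so sort and cell type cannot be told apart either.

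**Figure D1:**
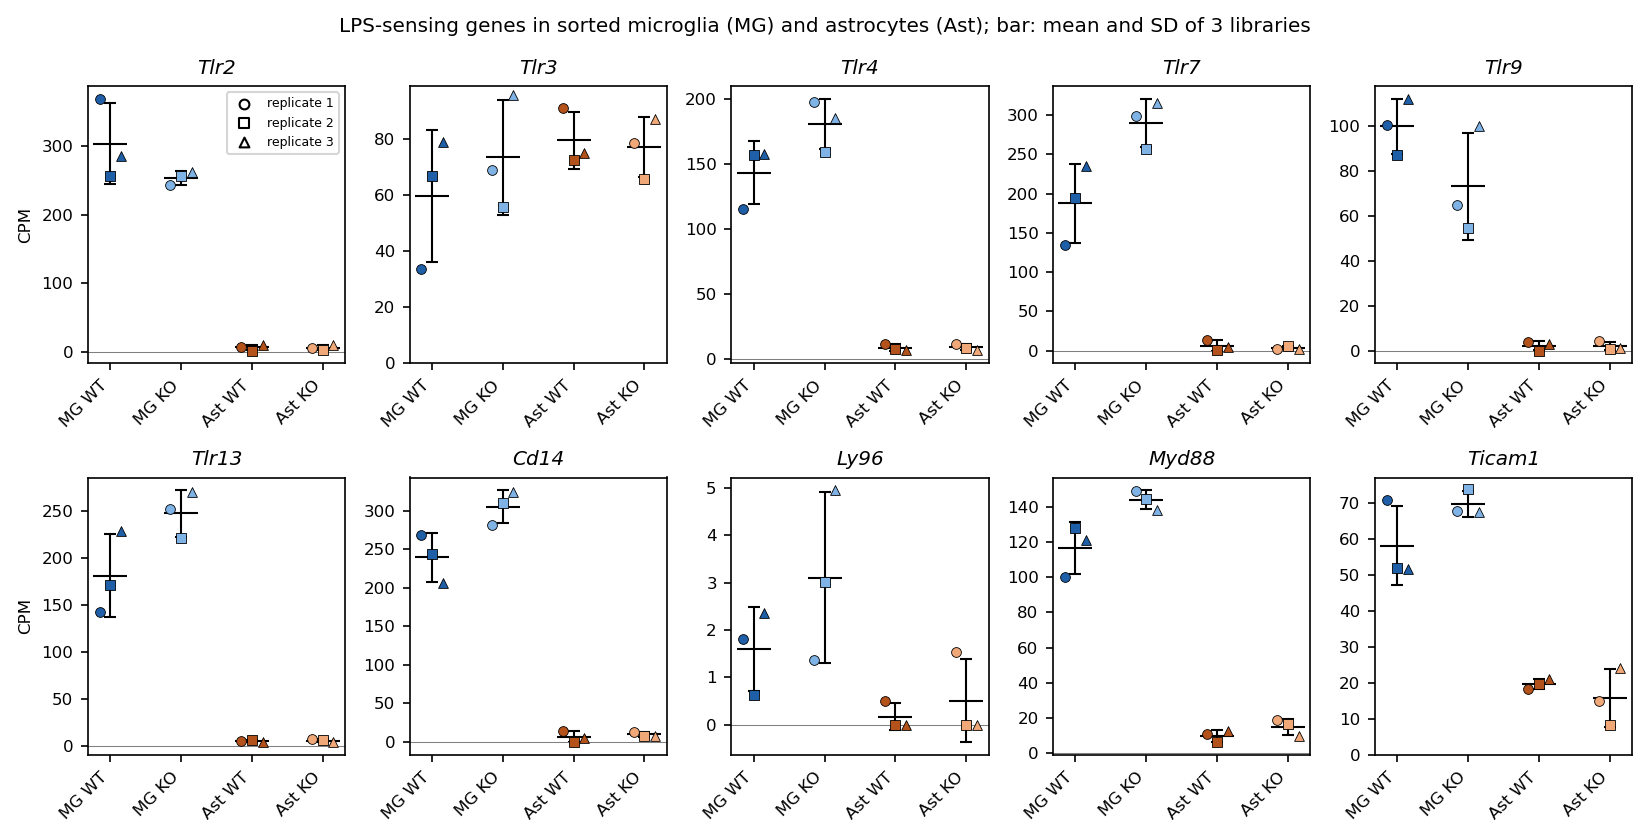
CPM of each gene (vertical axes, linear, each panel with its own scale) in 12 libraries, by cell type and genotype; symbols mark the replicate, and bars the mean and SD of 3 libraries. Cd14, the receptors other than Tlr3, and Myd88 sit near the bottom of the axis in astrocytes, while Tlr3 lies between 33.5 and 95.7 CPM in all libraries.

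Cd14, whose product binds LPS and hands it on, was the most abundant of the genes per length in microglia. Microglia WT libraries 1 to 3 had 269, 244 and 206 CPM, and KO libraries 282, 310.5 and 324 CPM. In astrocytes the WT libraries had 14.2, 0 and 5.74 CPM and the KO libraries 13.5, 7.91 and 7.58 CPM. All microglia libraries lay far above all astrocyte libraries, and 1 WT astrocyte library had no count, which allows up to 3 counts or 0.244 CPM. The log2 difference, astrocytes minus microglia, was -4.81 (SE 0.57, edgeR adjusted p 3.4e-06).

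Tlr4, the LPS receptor itself, followed the same split with less spread. Microglia had 115, 156 and 158 CPM in WT and 197, 159 and 185 CPM in KO. Astrocytes had 11.5, 7.64 and 6.77 CPM in WT and 11.3, 8.10 and 6.998 CPM in KO, from 87 to 160 counts per library. Every astrocyte library had Tlr4 counts, and the highest reached 9.98% of the lowest microglia library, from the same animal. The log2 difference was -3.92 (SE 0.20, 95% interval -4.33 to -3.50, edgeR adjusted p 5.25e-10).

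Ly96, which encodes the LPS-binding partner of TLR4, was scarcely counted in either cell type. Microglia had 24, 7 and 31 counts in WT and 14, 36 and 72 in KO, or 0.628 to 4.96 CPM. Astrocytes had 7 and 18 counts in the WT and KO libraries numbered 1 and 0 in the other 4. Ly96 passed the count filter only through the microglia libraries, so no call is read from its fitted log2 difference of -2.68 (SE 1.25, 95% interval -5.36 to 0.0036). Depth limits statements on this gene, and whether the counting assigned some of its reads elsewhere was not tested. Its longest annotated transcript has 632 bases, the shortest of the set, and per kilobase it still ranked last in microglia.

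Tlr2, the lipoprotein receptor, was at 368, 256 and 285 CPM in WT microglia and at 242, 257 and 261 CPM in KO microglia. WT astrocytes had 8.49, 2.28 and 10.5 CPM and KO astrocytes 6.97, 3.35 and 10.9 CPM. The groups of microglia overlapped each other, as did those of astrocytes, and the cell types did not. The log2 difference between cell types was -5.04 (SE 0.33, edgeR adjusted p 5.82e-09).

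The nucleic acid receptors that use MyD88 were as strongly divided. Microglia held Tlr7 at 188 ± 50.6 CPM (WT) and 291 ± 30.5 CPM (KO), against 6.38 ± 6.65 and 3.34 ± 1.89 CPM in astrocytes (SD, n = 3 each), a log2 difference of -5.35 (SE 0.51, edgeR adjusted p 3.12e-07). Tlr13 was at 181 ± 44.2 and 248 ± 24.8 CPM in microglia and at 5.11 ± 1.18 and 5.68 ± 1.74 CPM in astrocytes (SD, n = 3 each), with -5.01 (SE 0.23, edgeR adjusted p 2.64e-10). Tlr9 was lower than these in microglia, with 100.3, 87.2 and 112 CPM in WT and 64.9, 54.6 and 99.997 CPM in KO, and 0 to 4.17 CPM in astrocytes. Its log2 difference was -5.05 (SE 0.54, edgeR adjusted p 1.16e-06). Astrocyte values of Tlr7 spread widely, from 0.813 CPM in WT library 2 to 13.7 CPM in WT library 1.

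Tlr3, the receptor for double-stranded RNA, was the exception. Astrocytes had 91.2, 72.4 and 74.9 CPM in WT and 78.6, 65.8 and 86.9 CPM in KO. Microglia had 33.5, 66.7 and 78.7 CPM in WT and 68.8, 55.7 and 95.7 CPM in KO. The cell types overlapped, with the lowest value in microglia WT library 1 and the highest in microglia KO library 3. The log2 difference was 0.53 (SE 0.20, 95% interval 0.11 to 0.95) in favour of astrocytes, with an edgeR adjusted p of 0.0272. The call of a higher level was lost when any animal other than WT replicate 3 was left out. Log2 differences were then 0.26 to 0.40, with edgeR adjusted p of 0.126 to 0.344. The call was also lost when 8 abundant non-coding transcripts were left out of the totals (0.45, edgeR adjusted p 0.0636). These transcripts took 26.2% to 39.5% of counts in astrocyte libraries and 11.8% to 15.4% in microglia libraries.

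Of the adaptors, Ticam1 was the less divided. Its level was 58.2 ± 10.9 CPM (WT) and 69.7 ± 3.61 CPM (KO) in microglia and 19.6 ± 1.39 and 15.9 ± 7.98 CPM in astrocytes (SD, n = 3 each), a log2 difference of -1.60 (SE 0.21, edgeR adjusted p 8.97e-06). Myd88 was at 116 ± 14.7 and 144 ± 5.46 CPM in microglia and at 9.94 ± 3.42 and 15.02 ± 4.56 CPM in astrocytes (SD, n = 3 each), with -3.12 (SE 0.21, edgeR adjusted p 1.02e-08). No astrocyte library reached the microglia range of either adaptor.

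Levels of different genes were set side by side per kilobase of the longest protein-coding transcript in GENCODE M21. In microglia the order was Cd14 at 166 ± 26.4 CPM per kilobase, Tlr2 at 92.3 ± 15.4, Myd88 at 66.5 ± 9.23, Tlr7 at 61.4 ± 17.4, Tlr13 at 52.9 ± 11.95, Tlr4 at 39.7 ± 6.96, Tlr9 at 24.9 ± 6.42, Ticam1 at 21.4 ± 3.22, Tlr3 at 15.1 ± 4.78 and Ly96 at 3.72 ± 2.40 CPM per kilobase (SD over 6 libraries of both genotypes). Neighbours from Myd88 to Tlr13 differed by less than their SD. In astrocytes the order was another: Tlr3 led at 17.8 ± 2.14 CPM per kilobase, then came Myd88 at 6.37 ± 2.32, Ticam1 at 5.93 ± 1.84, Cd14 at 4.97 ± 3.20, Tlr2 at 2.34 ± 1.19 and Tlr4 at 2.14 ± 0.524 CPM per kilobase (SD, 6 libraries). Tlr3 was thus the ninth gene of the set in microglia and the first in astrocytes, and Myd88 to Cd14 in astrocytes lay within their SD of each other.

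The astrocyte libraries held some RNA of microglia markers, so each gene was set beside 10 such markers. The mean astrocyte level of the markers was 1.54% (Fcrls) to 9.28% (Sall1) of the mean microglia level, with a median of 1.93% and at most 3.34% outside Sall1. For Tlr7 the same percentage was 2.03%, for Tlr9 2.50%, for Tlr13 2.51%, for Tlr2 2.54% and for Cd14 2.99%, all within the range of the markers other than Sall1. Tlr4 stood at 5.39%, above all markers but Sall1. By these means the 4 genes above every marker were Myd88 at 9.58%, Ly96 at 14.4% from few counts, Ticam1 at 27.7% and Tlr3 at 118%. Over the animals Myd88 ran from 4.82% to 12.5%, which overlaps Sall1 at 6.54% to 13.3%. The median animal of Ly96 was at 0%. Tlr3 was the only gene of the set whose lowest animal, at 90.8%, was above the highest value of any marker in any animal, 13.3%; the lowest animal of Ticam1 was at 11.3%. Astrocyte WT library 2 had the smallest share of microglia markers, 0.0203% of counts, and the lowest Tlr2, Tlr7, Tlr9, Cd14 and Myd88 values. WT library 1 had the largest share, 0.0578%, and the highest Tlr3, Tlr4, Tlr7 and Cd14 values. This order was not kept throughout. Tlr13 was at 6.26 CPM in WT library 2 and 5.18 CPM in WT library 1. The highest Tlr2 value was in KO library 3, and the highest Tlr9 and Myd88 values were in KO library 1. Tlr4 was lowest in WT library 3 and Tlr3 in KO library 2. Ticam1 was lowest in KO library 2 and highest in KO library 3. Border macrophage markers took 0.000545% (WT library 2) to 0.0023% (KO library 1) of counts in the astrocyte libraries. What part microglia or border macrophage RNA had in the astrocyte values was not tested. Under TMM scaling the percentages were higher, at 33.0% for Ticam1 and 144% for Tlr3, with markers at 1.83% to 11.2%.

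**Figure D2:**
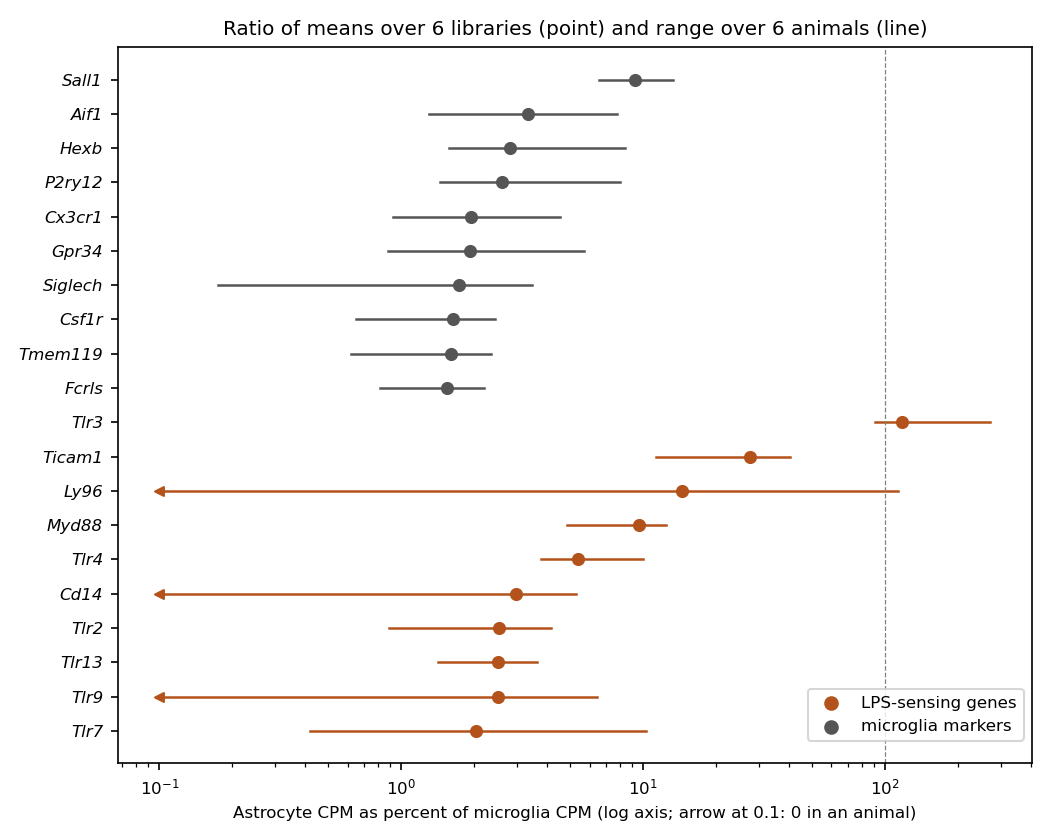
Mean CPM in 6 astrocyte libraries as a percent of the mean CPM in 6 microglia libraries (points, log axis), with the range over the 6 animals (lines), for the LPS-sensing genes and 10 microglia markers; an arrow marks an animal at 0. Tlr7, Tlr9, Tlr13, Tlr2 and Cd14 lie among the markers, and Tlr3, at 118%, lies to the right of all of them.

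For Tlr3 and Tlr4 the genes of most similar pattern over the 12 libraries were listed by the Pearson correlation of log2 CPM. For Tlr4 they were Mylip (r = 0.997), Apobec3 (0.997) and Slfn2 (0.997), and for Tlr3 Arl6ip1 (r = 0.901), Morf4l1 (0.899) and Rmnd5a (0.864). The libraries of the cell types form separate clusters, so the values for Tlr4 rest on that split, while Tlr3, which does not divide the clusters, had no neighbour as close.

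The rest of the pathway was examined from lists of related genes. The counts of calls below stand beside 31.8% lower and 31.8% higher among all 13088 genes that passed in both cell types. Of 9 other receptors and co-receptors, 5 passed the count filter in both cell types, of which 4 were called lower and 1 higher in astrocytes. Tlr6, Tlr8 and Tlr12 passed in microglia alone and are given by their counts. Tlr12, a receptor for profilin of parasites, had 176 to 560 counts in microglia and at most 4 in astrocytes; Tlr8, which detects RNA, had 19 to 91 and at most 13; Tlr6, a partner of TLR2, had 211 to 475 and at most 23. The exception was Lbp, which encodes the serum protein that delivers LPS to CD14: it was at 76.0 ± 22.6 and 72.8 ± 38.6 CPM in WT and KO astrocytes and at 14.99 ± 8.25 and 8.23 ± 1.82 CPM in microglia (SD, n = 3 each), a log2 difference of 2.99 (SE 0.30, edgeR adjusted p 6.62e-07). Tlr11 had at most 7 counts in any library.

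Among 8 sorting adaptors and inhibitors, 7 passed in both cell types, of which 4 were called lower and 2 higher in astrocytes. Tnfaip3, which encodes the NF-κB inhibitor A20, differed by -5.33 (SE 0.36, edgeR adjusted p 9.2e-09) and Ticam2, the adaptor that links TLR4 to TRIF, by -4.93 (SE 0.57, edgeR adjusted p 2.66e-06). Sarm1, an adaptor with NAD-cleaving activity, was higher in astrocytes by 1.27 (SE 0.47, edgeR adjusted p 0.0285) and Tollip, an inhibitor of IRAK kinases, by 0.47 (SE 0.14, edgeR adjusted p 0.0103). The libraries of both cell types overlapped in Sarm1 and in Tollip. Of 6 genes for the folding and transport of Toll-like receptors 4 were called lower and none higher in astrocytes, led by Unc93b1, the chaperone that carries nucleic acid receptors to endosomes, at -5.02 (SE 0.24, edgeR adjusted p 3.63e-10), and Slc15a4, an endosomal transporter, at -2.79 (SE 0.20, edgeR adjusted p 1.57e-08).

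Of 17 kinases and ligases 10 were called lower and 0 higher in astrocytes, while 7 did not pass; the largest differences were Irak4, the kinase that MyD88 recruits, at -2.14 (SE 0.32, edgeR adjusted p 3.91e-05) and Peli1, a ubiquitin ligase, at -1.63 (SE 0.15, edgeR adjusted p 2.41e-07). All 7 transcription factors were called lower, led by Irf8 at -5.32 and Irf5 at -5.12 (SE 0.32 and 0.36; edgeR adjusted p 2.93e-09 and 1.17e-08). Of 6 genes known to be induced through MyD88, 4 passed the filter in both cell types and all 4 were called lower in astrocytes, with Tnf at -6.09 and Il1b at -5.09 (SE 0.63 and 0.38); Il6 had at most 37 counts in microglia and 4 in astrocytes. Of 6 genes known to be induced through TRIF, 5 passed. Of these, 3 were called lower, with Ccl5 at -3.11 and Cxcl10 at -2.30 (SE 0.57 and 0.34). Ifit1 was called higher in astrocytes by 0.91 (SE 0.27, edgeR adjusted p 0.0095), though its libraries overlapped between the cell types. Over genes that passed in both cell types, medians of the log2 differences were -4.93 for the other receptors, -4.53 for MyD88 outputs, -2.29 for sorting adaptors and inhibitors, -2.02 for transcription factors, -1.45 for trafficking genes, -0.78 for TRIF outputs and -0.71 for kinases and ligases; differences between lists were not tested.

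**Figure D3:**
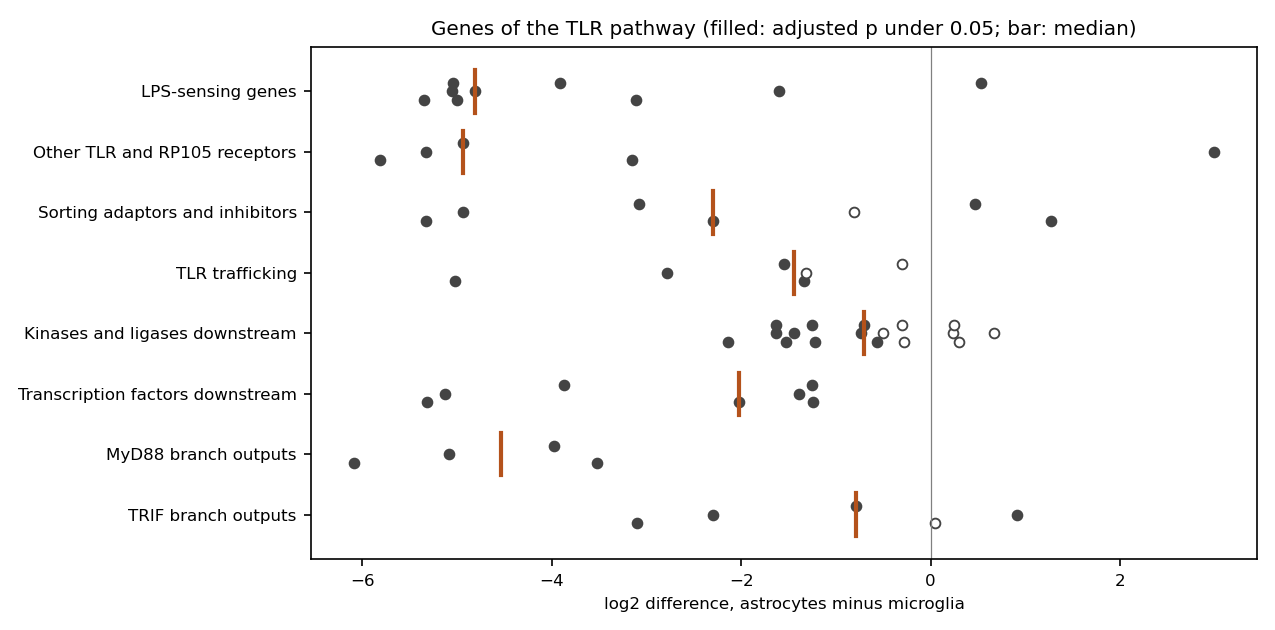
Log2 difference, astrocytes minus microglia (horizontal axis), of the genes of each pathway list that passed the count filter in both cell types; filled points had an edgeR adjusted p under 0.05, and bars are medians. The median bar is at -4.93 for the other receptors and -4.53 for MyD88 outputs, that of kinases and ligases is at -0.71, and Lbp at 2.99 is the point farthest to the right.

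Between genotypes no gene of the set passed the test in either cell type. In microglia 8 of 10 had a higher estimate in KO, with a median log2 difference of 0.30, beside 49.9% of 14191 genes with a higher estimate and a median of -0.00129. edgeR called 0% of all genes in this contrast, while 7.42% had an unadjusted p under 0.05, as did 1 of the 10 genes. DESeq2 called 41 genes, and neither it nor voom called any of the 10. All 3 KO libraries were above all 3 WT libraries in Tlr4, Tlr7, Cd14 and Myd88, so in 4 of 10 genes, where 6.53% of all genes tested had this order. This held for CPM of library totals; with TMM scaling, which the tests use, Tlr4 and Cd14 overlapped and 2 of 10 kept the order (Tlr7 and Myd88), beside 3.9% of all genes.

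Tlr7 had the smallest unadjusted p of the set in microglia. KO libraries had 299, 257 and 316 CPM and WT libraries 134, 194 and 235 CPM, a log2 difference of 0.61 (SE 0.21, 95% interval 0.16 to 1.07, unadjusted p 0.0121, edgeR adjusted p 0.587). The gap between the nearest KO and WT libraries was small beside the range of WT. Without WT replicate 1 the difference was 0.42 and without WT replicate 3 it was 0.79, with edgeR adjusted p of 0.9994 and 0.416.

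The estimates for Cd14 and Tlr4 in microglia were smaller than that for Tlr7, and differences between genes were not tested. Cd14 gave a log2 difference of 0.32 (SE 0.19, 95% interval -0.09 to 0.73, edgeR adjusted p 0.754). Tlr4 gave 0.32 (SE 0.19, interval -0.10 to 0.73, edgeR adjusted p 0.759), and its lowest KO library at 159 CPM was barely above its highest WT library at 158 CPM. Both intervals include 0 and end at 0.73. Without WT replicate 1, the lowest WT library for Tlr4, that gene's difference fell to 0.18.

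Myd88 stood at 149, 145 and 138 CPM in KO microglia against 99.97, 128 and 121 CPM in WT, with 0.29 (SE 0.18, interval -0.11 to 0.68, edgeR adjusted p 0.77). Without WT replicate 1 its difference was 0.19. Ticam1 gave 0.23 (SE 0.21, edgeR adjusted p 0.844), and there WT library 1 was the highest of its group, at 70.8 CPM. Tlr13 gave 0.43 (SE 0.20, edgeR adjusted p 0.676) and Tlr3 0.28 (SE 0.29, edgeR adjusted p 0.857); without WT replicate 1, in which Tlr3 was at 33.5 CPM, the Tlr3 difference was -0.0045. The genes with a lower estimate in KO were Tlr9 at -0.47 (SE 0.23, edgeR adjusted p 0.698) and Tlr2 at -0.29 (SE 0.20, edgeR adjusted p 0.785), and their genotypes overlapped. Ly96 gave 0.93 with an interval of -0.90 to 2.76.

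Microglia WT library 1 was the lowest of all 6 microglia libraries for Tlr3, Tlr4, Tlr7, Tlr13 and Myd88 and the highest for Tlr2. It also had the most genes with a count, 20905 against 16827 to 17650 in the other microglia libraries. What part this library's make-up had in the differences was not tested beyond the values without it, given above. Choroid plexus markers took 0.0840% to 0.212% of counts in WT and 0.0341% to 0.0863% in KO microglia, and the part of that difference in these results was not tested (exact permutation p 0.2, 2-sided; the smallest that 3 against 3 allows is 0.1).

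In astrocytes 9 of the 10 genes passed the count filter and none was called; edgeR called 0% of 15755 genes. Of these, 2.37% had an unadjusted p under 0.05, as did 0 of the 9 genes, and DESeq2 called 4 genes, none of them among the 9. The genotypes overlapped in all 9, where 8.13% of all genes tested did not overlap. Myd88 had the smallest unadjusted p, with 18.6, 16.6 and 9.89 CPM in KO and 10.8, 6.18 and 12.9 CPM in WT, a log2 difference of 0.75 (SE 0.41, interval -0.16 to 1.65, unadjusted p 0.0971, edgeR adjusted p 0.9993). Tlr3, the receptor most abundant there, was measured best: its log2 difference was 0.07 (SE 0.20), and its 95% interval ran from -0.38 to 0.51.

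The other receptors were too scarce in astrocytes for such limits. Cd14 gave 0.66 (interval -1.56 to 2.88), Tlr7 -0.73 (-2.72 to 1.26), Tlr9 -0.01 (-2.98 to 2.97), Tlr2 0.09 (-1.26 to 1.45), Tlr13 0.26 (-1.01 to 1.54) and Tlr4 0.13 (-0.84 to 1.11) as log2 differences, with edgeR adjusted p of 0.9993 or above. Ticam1 gave -0.23 (SE 0.36), with 8.38 to 24.3 CPM in KO and 18.2 to 21.0 CPM in WT. Tlr7 turned to 0.57 without WT replicate 1, the library with the largest share of microglia markers, and to 0.35 with the microglia marker score as a covariate.

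**Figure D4:**
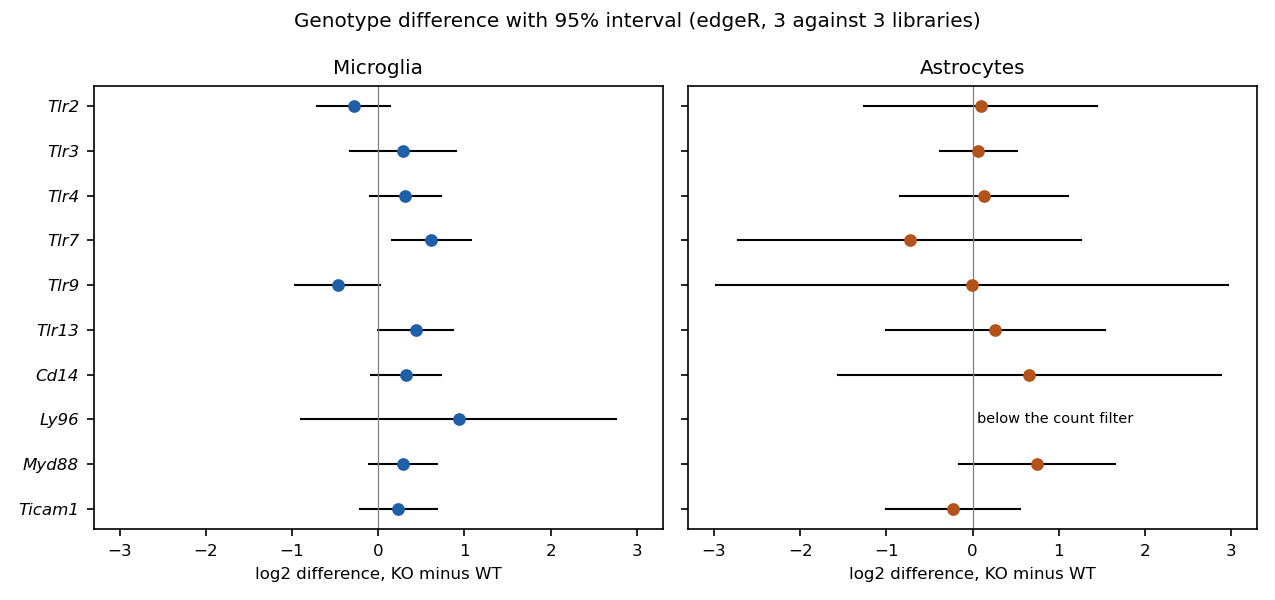
Log2 difference KO minus WT (horizontal axis) with its 95% interval for each gene in microglia and in astrocytes, from edgeR fits of 3 against 3 libraries. Intervals are narrow in microglia except for Ly96 and wide in astrocytes except for Tlr3; Tlr7 in microglia, at 0.61, is the only one whose unadjusted interval leaves out 0.

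The difference of the genotype effects between astrocytes and microglia passed the test for none of the 10 genes, and edgeR called 0% of 17294 genes, with 6.37% at an unadjusted p under 0.05 and 0 of the 10 among them; DESeq2 called 62 genes and none of the 10. Estimates ran from -1.29 for Tlr7 (SE 0.88, edgeR adjusted p 0.901) to 0.69 for Ly96 (SE 2.29), beside a median of 0.16 over all genes. Without a count filter Tlr7 reached -1.48 with an edgeR adjusted p of 0.047, but without WT replicate 1 it was 0.12, so the direction rests on that animal.

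The pathway lists were called in neither genotype comparison. In microglia the smallest unadjusted p of each list belonged to Lbp (0.0585), Ticam2 (0.168), Slc15a4 (0.342), Ikbke (0.00773), Irf5 (0.148), Il1b (0.0205) and Ccl5 (0.00634). Ikbke, a kinase of the TRIF arm, gave -1.33 (SE 0.43, edgeR adjusted p 0.572), Il1b 0.57 (SE 0.22, edgeR adjusted p 0.616) and Ccl5 1.15 (SE 0.36, edgeR adjusted p 0.551). Of the 5 measured TRIF outputs 4 had a lower estimate in KO in each cell type, with medians of -0.60 in microglia and -1.07 in astrocytes. Over all genes, 49.9% in microglia and 49.4% in astrocytes had a higher estimate, with medians of -0.00129 and -0.00684. edgeR called 0 of the TRIF outputs. At an unadjusted p under 0.05 were Ccl5 (higher), Ifit1 and Ifit2 (lower) in microglia, and Ifit1 and Isg15 (lower) in astrocytes. Of all genes, 7.42% in microglia and 2.37% in astrocytes were under 0.05. So were 3 of the 17 kinases and ligases in microglia, and differences between lists were not tested. In astrocytes the smallest unadjusted p belonged to Ifit1, an interferon-induced gene, at -1.19 (SE 0.36, unadjusted p 0.00628, edgeR adjusted p 0.9993). MyD88 outputs had medians of 0.165 in microglia and -0.11 in astrocytes.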

How the data were processed

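RNA-seq was measured in 12 libraries from 6 animals. Per the submitters' processing notes, reads were handled with STAR 2.7.10b, RSEM 1.3.3 and limma on GRCm39; no source used here names the annotation. The authors deposited estimated counts per gene symbol, not normalized; by library, 3.44% to 5.27% of nonzero values differed from a whole number by over 0.001. Per the labels, libraries came from full-length cDNA and no molecular identifiers are mentioned, so floors cover counting error only.

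Counts were rounded, and CPM were computed on library totals of 10.3 M to 15.6 M. Tests were edgeR 4.0.16 quasi-likelihood fits (R 4.3.3) with TMM factors, filterByExpr at a minimum count of 10 and Benjamini-Hochberg adjustment over all genes tested: 6 libraries per cell type for genotype, and all 12 for cell type and for the difference of genotype effects. SE is the log2 difference divided by the square root of F. Alternatives used DESeq2 1.42.0, limma 3.58.1 (voom), other scalings, filters and covariates, blocks and left-out animals. The fits were tested on simulated data.

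The 10 genes, the lists and the rule for named genes were chosen with earlier results of these data known. The rule names the 10 genes, Kpna4, per list and comparison up to 2 called rises and falls (or the smallest unadjusted p), and 3 genes of similar pattern to Tlr3 and Tlr4. Lengths and promoters are from GRCm38 annotation matched by symbol. Animal numbers in the labels pair the libraries of both cell types; their deviations from group means correlated at 0.004 to 0.096 across genes. The labels do not say how animals were grouped beyond genotype, so p-values measure the spread between these animals.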

Additional observations from a re-analysis of the deposited data

How the results depend on the processing

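Values are log2 differences unless they are counts of genes. In microglia, KO against WT, the genes called rose from 0 to 41 with DESeq2, 121 with no filter on low counts, 41 in the fit of all 12 libraries and 30 with the replicate number as a replicate block; leaving out 1 replicate gave 0 to 2. In astrocytes they rose from 0 to 4 with DESeq2 and 17 without a filter, and were 0 to 1 without 1 replicate. For the difference of both effects they were 62 with DESeq2, 160 without a filter (1 of them Tlr7) and 0 to 6 without 1 replicate. No alternative called any of the 10 genes within a cell type. The cause of these changes was not tested.

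The WT and KO animals share only a number: their deviations correlated at 0.051 to 0.194 in microglia and -0.022 to 0.231 in astrocytes. With the replicate block Tlr9 in astrocytes turned to 0.70; with the animal as a replicate block the Ly96 difference of effects turned to -0.50, and no call among the 10 genes changed.

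Other reversals were in scarce transcripts or near 0. In astrocytes Tlr9 was 0.0065 with DESeq2, 0.0057 with its size factors, 0.64 with voom and 1.16 with the microglia marker score, where Tlr7 was 0.35. Without 1 replicate, Tlr3 in microglia ran from -0.0045 to 0.52, and in astrocytes Tlr2 from -0.31 to 0.43, Tlr3 from -0.019 to 0.18, Tlr4 from -0.051 to 0.40, Tlr7 from -1.49 to 0.57 and Tlr9 from -0.86 to 0.72. The difference of effects ran from -0.12 to 0.88 for Tlr2, -0.48 to 0.23 for Tlr3, -0.41 to 0.26 for Tlr4, -2.20 to 0.12 for Tlr7, -0.58 to 1.15 for Tlr9, -0.48 to 0.054 for Tlr13, -0.35 to 1.499 for Cd14 and -5.55 to 4.81 for Ly96. The count of the 10 genes with all KO above all WT libraries fell from 4 to 2 in microglia with TMM-scaled CPM. Without 1 replicate, where it cannot fall by construction, it was 4 to 5 in microglia and 0 to 1 in astrocytes; both alternatives were chosen after seeing the data. Between cell types, 8 to 10 of the 10 genes were called under every alternative run; only the calls of Tlr3 and Ly96 changed, and Ly96 passed the filter through microglia alone. Depth limits Ly96 in both cell types, and Tlr7, Tlr9 and Cd14 in astrocytes.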
